A study of Mus musculus with 2 samples.

Results

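The 10 antioxidant enzyme genes described here are the superoxide dismutases Sod1, Sod2 and Sod3, catalase (Cat), the glutathione peroxidases Gpx1, Gpx3 and Gpx4, the peroxiredoxins Prdx1 and Prdx3 and the thioredoxin reductase Txnrd1. They were picked by symbol, and all 10 were found by Ensembl ID among the 43346 gene rows of each table. The tissue was skeletal muscle of B6NCrl mice on postnatal day 0, untreated and with no engineered allele named, and the series holds 1 group of 2 samples. The labels describe the samples as pup 1 (replicate 1) and pup 2 (replicate 2) of a single pregnancy but give both the same donor entry, so the spread between them is biological only if they are separate animals. The muscle taken is not named, the sex was not collected, and 10 ng of RNA longer than 200 nt entered each total RNA library. There is no second condition, so levels are described within newborn muscle and between the pups, and no p-value is given because each pup gave 1 library.

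Superoxide, which leaks from the respiratory chain and is made by oxidases, is turned into hydrogen peroxide by the superoxide dismutases. Peroxide is then removed by catalase in peroxisomes, by glutathione peroxidases that draw on glutathione, and by peroxiredoxins that are recycled by thioredoxin and thioredoxin reductase. At birth the pup passes from the low oxygen of the womb to air, and working muscle uses much oxygen.

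The gene tables held 40455042 expected counts (estimated reads per gene, after shared reads are split by a model) in replicate 1 and 37151129 in replicate 2. The members took 0.215% of these in replicate 1 and 0.185% in replicate 2. The fibre markers Acta1, Ckm, Mylpf, Tnnt3, Myh8 and Myh3 were all present, and their summed level was 89201 TPM in replicate 1 and 99543 in replicate 2 (TPM gives each transcript as a part of all transcripts, corrected for length). Replicate 1 stood apart in markers of other tissues, at a summed 5086 against 892 TPM for 8 adipocyte genes, 469 against 11.9 TPM for 8 epidermis genes and 41.7 against 1.24 TPM for 6 cartilage genes. All genes of these 3 lists were higher in replicate 1, and 1 epidermis gene and 1 cartilage gene were at 0 in replicate 2. In bulk tissue, fewer cells of a type and less RNA per cell cannot be told apart.

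Of the members, 4 are selenoproteins, in which an in-frame TGA, a stop codon in other messages, is read as selenocysteine at the active site. The coding stretches around it were taken from the GENCODE M21 transcripts of mm10. They are shown because the Gpx1 models described below differ in whether their annotated reading frame holds this codon. The TGA is in capitals, all genes are on the plus strand, and the stretches run 5′ to 3′.
Gpx1-201: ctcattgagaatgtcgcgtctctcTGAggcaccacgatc
Gpx3-201: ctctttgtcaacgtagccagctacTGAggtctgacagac
Gpx4-202: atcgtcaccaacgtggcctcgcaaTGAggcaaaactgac
Txnrd1-201: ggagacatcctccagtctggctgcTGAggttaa
The codon lies at chr9:108339451-108339453 in Gpx1, chr11:54907256-54907258 in Gpx3, chr10:80054737-80054739 in Gpx4 and chr10:82896037-82896039 in Txnrd1. In the 3 peroxidases it falls in the first part of the reading frame, at codon 47 of 202 in Gpx1, 73 of 227 in Gpx3 and 73 of 198 in Gpx4, with the stop codon counted. In Txnrd1 it is codon 498 of 500, followed by a single codon and the stop.

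All 10 genes were expressed in both pups, with 1367 to 17771 expected counts per library. Sod1, Gpx4 and Prdx1 made up 76.2% of the summed mean TPM of the members, and the mean of Sod1 was 52.8-fold that of Txnrd1. Among the 12495 protein-coding genes with a mean of at least 1 TPM, whose median was 11.8 TPM, 6 members lay above the 90th percentile and the lowest, Txnrd1, at the 61.0 percentile. The order of levels was the same in both pups except that Sod2 and Cat, and Sod3 and Txnrd1, changed places. Of the 9 neighbouring pairs in this order these were the only 2 whose ranges overlapped, so neither pair differed beyond the spread between the pups.

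**Figure D1:**
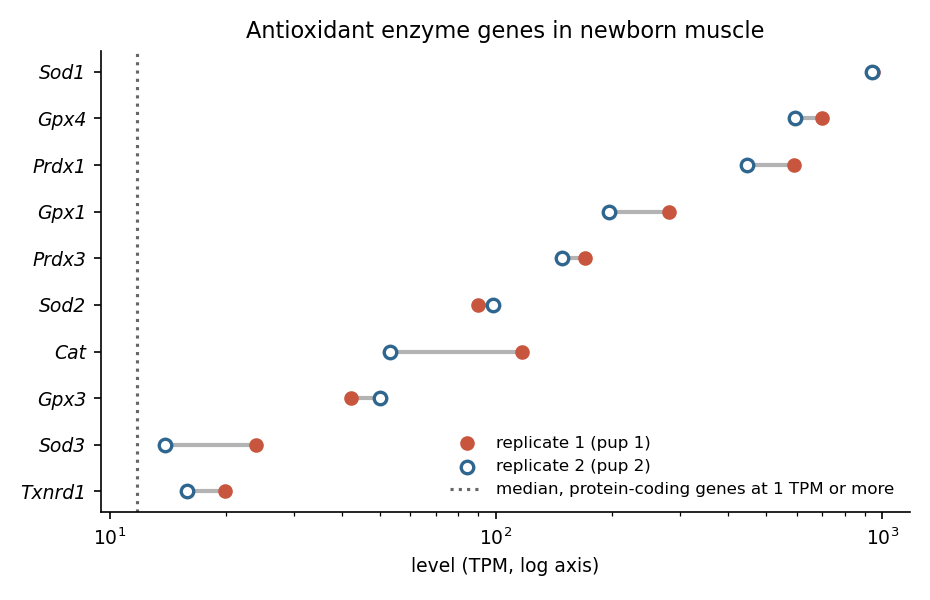
Level of each member in TPM (log axis) in replicate 1 (filled) and replicate 2 (open), sorted by the mean, with a grey line joining the pups and the dotted line at the median of protein-coding genes with a mean of at least 1 TPM (11.8 TPM). Sod1 is highest, with its 946 and 939 TPM drawn on top of each other, and the widest gap between the pups is that of Cat.

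Among the superoxide dismutases the cytosolic copper and zinc enzyme led. Sod1 (ENSMUSG00000022982, chr16:90220754-90226329) stood at 946 TPM in replicate 1 and 939 in replicate 2 (943 ± 5.35, SD, n = 2), the 99.1 percentile. Sod2 (ENSMUSG00000006818, chr17:13006846-13040063), the manganese enzyme of the mitochondrial matrix, was at 89.7 and 98.0 TPM (93.9 ± 5.88, SD, n = 2). Sod3 (ENSMUSG00000072941, chr5:52363791-52371418), the secreted enzyme bound to the matrix around cells, was at 23.9 and 13.9 TPM (18.9 ± 7.05, SD, n = 2). Counts of Sod1 were fractional, as a few of its reads were shared with other rows (posterior SD 2.82 and 2.93 reads), and its locus overlaps the antisense gene Scaf4 (958 and 757 counts), whose reads cannot be told apart from its own unless strand was used, which is not stated. The 3 genes kept this order in both pups, without overlap. Within each pup, the log2 ratio of TPM with 0.1 added was 3.40 and 3.26 for Sod1 to Sod2 (3.33 ± 0.10, a 10.0-fold difference) and 1.90 and 2.81 for Sod2 to Sod3 (2.35 ± 0.64). Ccs, the chaperone that loads copper into SOD1, had 33.0 and 29.0 TPM.

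The peroxide-removing enzymes that use a heme or selenium were led by Gpx4. Gpx4 (ENSMUSG00000075706, chr10:80047166-80056439), which reduces lipid peroxides within membranes and guards against ferroptosis, was at 698 and 595 TPM (646 ± 72.4, SD, n = 2). Gpx1 (ENSMUSG00000063856, chr9:108338903-108340343), the general peroxidase of cytosol and mitochondria, was at 281 and 196 TPM (239 ± 59.7, SD, n = 2). Gpx3 (ENSMUSG00000018339, chr11:54902453-54910377), the secreted form found in plasma, was at 42.1 and 50.2 TPM (46.2 ± 5.72, SD, n = 2). The ranges of the 3 peroxidases did not overlap, with log2 ratios of -1.46 ± 0.20 for Gpx1 to Gpx4 and -2.35 ± 0.54 for Gpx3 to Gpx1, the latter -1.39 ± 0.53 and under 3 SD in counts not corrected for length. Cat (ENSMUSG00000027187, chr2:103453849-103485160), the heme enzyme of peroxisomes, was at 117 and 53.3 TPM (85.0 ± 44.9, SD, n = 2). It was below Gpx1 in TPM in both pups, at a log2 ratio of -1.27 and -1.88, an order that turned to 0.14 ± 0.45 in counts not corrected for length.

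The thioredoxin-linked members spanned a wide range. Prdx1 (ENSMUSG00000028691, chr4:116685544-116700822), the cytosolic peroxiredoxin, was at 590 and 447 TPM (518 ± 102, SD, n = 2), and few of its reads were shared with other rows (posterior SD 1.70 and 1.56 reads). Prdx3 (ENSMUSG00000024997, chr19:60864051-60874556), its mitochondrial relative, was at 170 and 148 TPM (159 ± 15.6, SD, n = 2). Prdx1 was the higher in both pups, with a log2 ratio of 1.69 ± 0.14. Txnrd1 (ENSMUSG00000020250, chr10:82833951-82897712), the cytosolic reductase that keeps thioredoxin reduced, was at 19.9 and 15.9 TPM (17.9 ± 2.83, SD, n = 2). Its mitochondrial counterpart Txnrd2 was at 18.0 and 16.0 TPM, and the log2 ratio of Txnrd1 to Txnrd2 was 0.14 in replicate 1 and -0.01 in replicate 2, a difference within the spread. Thioredoxin itself was well above the reductases, at 189 and 158 TPM for the cytosolic Txn1 and 224 and 210 TPM for the mitochondrial Txn2.

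The rest of the same families was led by peroxiredoxins. There are 12 other Gpx, Prdx and Txnrd genes, and 8 of them averaged 1 TPM or more. Prdx2, the peroxiredoxin abundant in red cells, was at 290 ± 14.4 TPM, the mitochondrial and peroxisomal Prdx5 at 223 ± 32.2, the secretory-pathway Prdx4 at 160 ± 19.6 and Prdx6 at 104 ± 10.2 (SD, n = 2 each). Prdx1 exceeded Prdx2 by a log2 ratio of 0.83 ± 0.21, while Prdx3 was below Prdx5 at -0.48 ± 0.07, an order that turned to 0.23 in counts not corrected for length. The endoplasmic reticulum peroxidases Gpx7 and Gpx8 were at 57.5 ± 12.8 and 62.3 ± 18.7 TPM. They exceeded the secreted Gpx3 in replicate 1, and in replicate 2 Gpx7 (48.5 TPM) and Gpx8 (49.1 TPM) lay just below its 50.2 TPM. Gpx5 and Gpx6 had 0 counts in both libraries, and Gpx2 and Prdx6b had 0 and 1. In all, 12 pairs of antioxidant genes were set side by side within each pup. The mean log2 ratio exceeded 3 SD with the same sign in both pups for 11 of them, 6 above 0 and 5 below, and Txnrd1 to Txnrd2 was the remaining pair.

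**Figure D2:**
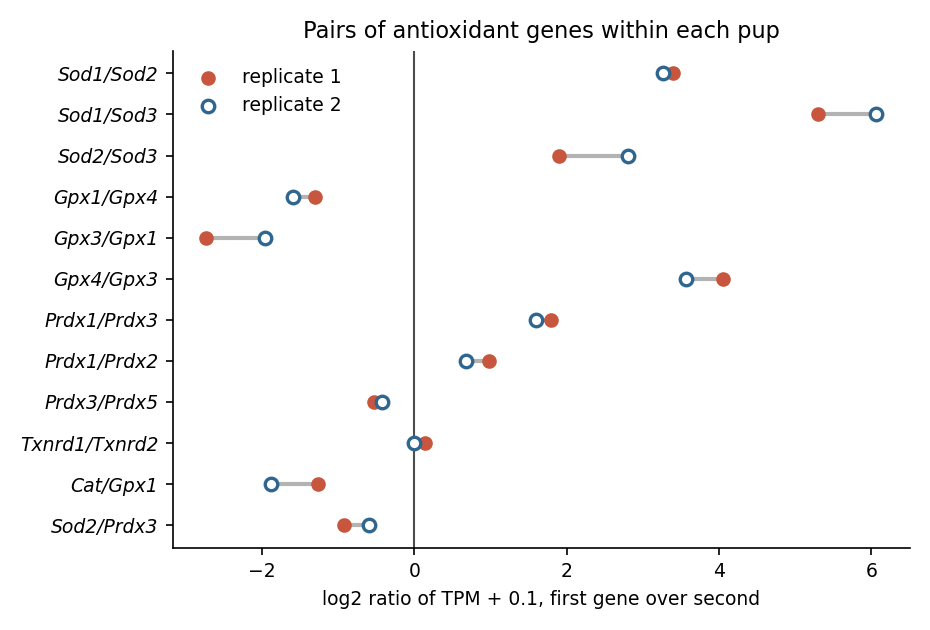
Log2 ratio of TPM with 0.1 added, first gene over second, in replicate 1 (filled) and replicate 2 (open) for 12 pairs. All pairs but Txnrd1/Txnrd2 lie on the same side of 0 in both pups, from -2.73 for Gpx3/Gpx1 in replicate 1 to 6.06 for Sod1/Sod3 in replicate 2.

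Transcript models split 3 of the members. Sod1, Sod2, Sod3, Prdx3 and Txnrd1 have 1 model each in the tables, and Cat-201 and Gpx3-201 held at least 99% of the TPM of their genes in both pups. Gpx4, Gpx1 and Prdx1 were shared between models, and these shares are estimates by the authors' model.

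For Gpx4 the known forms differ in their first exon. The upstream first exon codes for a mitochondrial leader, and a second ATG further on starts the shorter cytosolic protein. The alternative first exon codes for the basic leader of the form known from sperm nuclei. The first 84 coding bases of each are shown, since reads over them tell the forms apart, with the annotated starts and the second in-frame ATG (codon 28) in capitals.
Gpx4-202: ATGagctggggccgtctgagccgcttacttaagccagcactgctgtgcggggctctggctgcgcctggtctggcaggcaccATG
Gpx4-201: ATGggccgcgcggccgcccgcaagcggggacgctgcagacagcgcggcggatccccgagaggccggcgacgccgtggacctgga
The stretches lie at chr10:80053632-80053715 and chr10:80054049-80054132. Gpx4-202, with the upstream exon, held 38.0% and 38.4% of Gpx4 TPM in replicates 1 and 2, and Gpx4-201, with the nuclear leader, only 0.46% and 0.36%. In expected counts this was 6814 and 5552 reads for Gpx4-202 against 85.7 and 53.9 for Gpx4-201. The leading model was Gpx4-207, at 61.0% and 60.7% of TPM. Gpx4-207 begins downstream of both leaders and has its annotated start at chr10:80054550-80054552, before the selenocysteine codon. By counts the shares of Gpx4-202 and Gpx4-207 were closer, at 45.4% and 53.8% in replicate 1 and 45.7% and 53.6% in replicate 2.

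For Gpx1 a pair of models came out almost level. Gpx1-201, the full-length form, held 49.5% and 50.8% of TPM in replicates 1 and 2, and Gpx1-204 held 50.0% and 46.3%, so the lead changed between the pups. By counts Gpx1-201 led in both, with 63.2% and 64.1% against 36.4% and 33.2%. Gpx1-204 lacks 104 bases of the first coding exon (chr9:108339317-108339420) and its annotated reading frame starts at an ATG behind the selenocysteine codon, so the protein annotated for it lacks that residue. The stretch from the usual start to that later start (chr9:108339313-108339483) is shown with both ATG codons and the TGA in capitals.
Gpx1: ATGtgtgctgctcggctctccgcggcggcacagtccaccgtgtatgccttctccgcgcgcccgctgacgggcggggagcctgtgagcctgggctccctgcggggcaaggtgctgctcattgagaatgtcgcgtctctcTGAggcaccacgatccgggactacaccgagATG
In TPM, the full-length Gpx1-201 was at 139 and 99.7, and Gpx1-204 at 140 and 90.8. Expressed this way, the transcripts that keep the selenocysteine codon in frame made up about the same part of Gpx1 in both pups, 49.5% and 50.8%.

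For Prdx1 the choice of scale decided which model led. Prdx1-201, a model of 636 nt that the annotation marks as incomplete at its 3′ end, held 62.0% and 63.6% of TPM but 33.1% of counts in each pup. Prdx1-204, the 2294 nt model with the complete reading frame, held 27.3% and 29.0% of TPM and 59.5% and 61.6% of counts. Both models share the annotated start codon. The pups repeated each other within these shares more closely than the 2 scales did. The TPM of the whole gene rests on this split, as the length used to correct its counts was 1007 nt in replicate 1 and 1031 nt in replicate 2. The place of Prdx1 among the members and its pair ratios in TPM therefore depend on it too. The same holds for Gpx1, with lengths of 762 and 771 nt, and for Gpx4, with 720 and 721 nt. The 76.2% share of Sod1, Gpx4 and Prdx1 among the members likewise rests on the splits of Gpx1, Gpx4 and Prdx1.

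**Figure D3:**
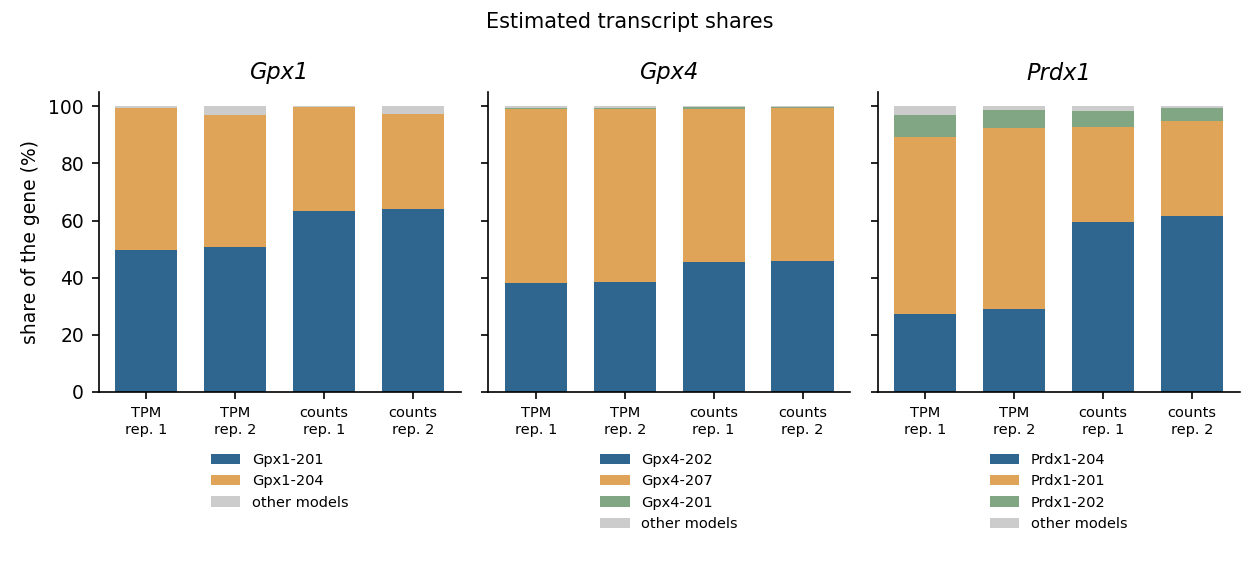
Estimated share of Gpx1, Gpx4 and Prdx1 in each transcript model (%), as stacked bars by TPM (the left pair of bars) and by expected counts (the right pair), for replicates 1 and 2. Bars of the same scale look alike between the pups, while Prdx1-204 rises from 27.3% of TPM to 59.5% of counts in replicate 1.

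Between the pups, Cat differed most among the members on every scale used. Ratios were taken as replicate 2 over replicate 1 from whole-rounded counts scaled by TMM (a scaling that centres the bulk of genes), with a 95% counting interval that covers counting error only. Cat had 8776 counts in replicate 1 and 3790 in replicate 2, a log2 ratio of -0.99 (95% counting interval -1.04 to -0.93), or 1.98-fold higher in replicate 1 (1.91 to 2.06). Of the 12432 genes with a mean of at least 100 counts, 2.39% passed 2-fold in either direction, and 2.28% had a lower ratio than Cat. No member passed 2-fold on this scale, against 2.23% of tested genes higher in replicate 1 and 0.161% higher in replicate 2 by that fold. Cat did pass it in deposited TPM (log2 ratio -1.13), in counts scaled by their total (-1.09) and by ERCC spike-ins (-1.25). The deposited TPM ran lower in replicate 2 as a whole, with a median log2 ratio of -0.15 over the tested genes. It was -0.10 for counts scaled by their total and -0.26 for the spike-ins.

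Sod3 followed with 2480 and 1367 counts, 1.55-fold higher in replicate 1 (95% counting interval 1.45 to 1.66), a size of 1.5-fold or more that 6.09% of tested genes reached in either direction. Gpx1 was 1.28-fold higher in replicate 1 (1.23 to 1.33), Prdx1 1.17-fold (1.14 to 1.19), Txnrd1 1.13-fold (1.06 to 1.21), Gpx4 1.06-fold (1.03 to 1.08) and Prdx3 1.04-fold (1.00 to 1.08). In the other direction, Gpx3 was 1.32-fold higher in replicate 2 (1.24 to 1.40), Sod2 1.21-fold (1.18 to 1.24) and Sod1 1.10-fold (1.07 to 1.12). Sod1 turned to a log2 ratio of -0.01 in deposited TPM and -0.13 with spike-in scaling. Spike-in scaling rests on only 406 and 416 spike-in counts in replicates 1 and 2. It shifted the log2 ratios of all members down by nearly the same amount. Gpx3 went from 0.40 to 0.14, Sod2 from 0.27 to 0.01 and Prdx3 from -0.05 to -0.31. The counting intervals do not cover this choice of scaling. In sum 7 of 10 members lay beyond counting error towards replicate 1 and 3 towards replicate 2. Of all tested genes 26.4% and 26.7% did so, and of those with at least 1000 mean counts, which all the members have, 28.3% and 36.9%. The members' median log2 ratio was -0.13, against 0.00 over all genes tested. An interval that leaves out 0 says only that these libraries differ.

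**Figure D4:**
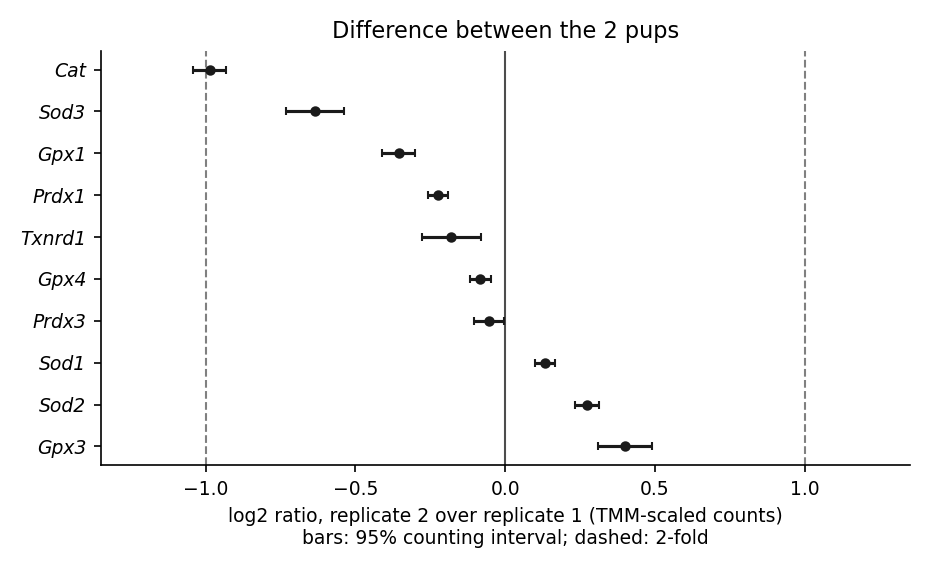
Log2 ratio of replicate 2 over replicate 1 for each member from TMM-scaled counts, with 95% counting intervals and dashed lines at 2-fold. Cat at -0.99 sits just inside the left dashed line and Gpx3 at 0.40 is the farthest to the right; Sod1 at 0.13 changes sign in deposited TPM and with spike-in scaling.

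Markers of fat, epidermis and cartilage moved in the same direction as Cat and Sod3. All 7 tested adipocyte genes passed 2-fold towards replicate 1, with a median log2 ratio of -4.37, among them Adipoq at 381 and 36.0 TPM and Fabp4 at 2591 and 787 TPM. So did all 8 epidermis genes (median -7.95) and all 4 tested cartilage genes (median -3.55). Leukocyte markers had a median of -0.56. Mcpt4 (-0.98), Cpa3 (-0.75) and Cma1 (-0.70) are mast cell genes, and Csf1r (-0.27), Adgre1 (-0.09) and Lyz2 (0.12) are macrophage genes. The other tested leukocyte markers were S100a9 (-0.90), S100a8 (-0.56) and Ptprc (-0.41). Medians of the other groups were -0.24 for fibroblasts, -0.12 for red cells, 0.07 for endothelium and 0.76 for the 4 tested liver genes. All 6 muscle fibre markers were higher in replicate 2 (median 0.30), although Ckm (-0.02), Mylpf (-0.11) and Tnnt3 (-0.12) changed sign with spike-in scaling, and Tnnt3 also in deposited TPM (-0.0044). The part of these tissues and cells in the Cat and Sod3 ratios was not tested. In replicate 2 alone, where the 8 adipocyte markers were 5.70-fold lower in summed TPM, Cat was at 53.3 TPM and Sod3 at 13.9 TPM.

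Genes that supply reducing power had ratios on both sides of 0. Of 14 genes of glutathione and NADPH metabolism, 12 averaged 1 TPM or more. The others were Slc7a11, at 0.07 and 0.03 TPM, and Ggt1, at 0.05 TPM in both pups. Of the 12 tested genes, 6 lay beyond counting error towards replicate 1 and 4 towards replicate 2. Of all tested genes 26.4% and 26.7% did. Only Me1 passed 2-fold, at 2.18-fold. The 4 cytosolic enzymes that make NADPH, G6pdx, Pgd, Idh1 and Me1, singled out after their values were seen, were all higher in replicate 1, by 1.55-fold (Pgd) to 2.18-fold (Me1). The adipocyte markers moved the same way (7 of 7 tested, median -4.37, with the lipid enzyme Scd1 at -5.06), and their part in these ratios was not tested. The mitochondrial NADPH enzymes Idh2 (589 and 617 TPM, log2 ratio 0.22 from scaled counts) and Nnt (86.3 and 94.4 TPM, 0.27) were higher in replicate 2. With spike-in scaling, however, Idh2 turned to -0.04 and Nnt fell to 0.01. Of the mitochondrial members, Sod2 had a ratio of 0.27 and Prdx3 of -0.05 (0.01 and -0.31 with spike-in scaling). Nnt is deleted in part in the C57BL/6J strain, but B6NCrl belongs to the 6N lineage that keeps it. Glutathione reductase, Gsr, which renews glutathione for the peroxidases, was at 30.4 and 24.5 TPM.

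Partners and regulators of the enzymes in the lists that follow were expressed throughout. All 15 genes of the thioredoxin and glutaredoxin list averaged 1 TPM or more, led by Glrx5, a glutaredoxin of iron-sulfur cluster assembly, at 220 ± 5.79 TPM, Txn2 at 217 ± 9.23 and the thioredoxin-binding Txnip at 191 ± 4.52 (SD, n = 2 each). Among them only Sesn2, a stress-induced sestrin, passed 2-fold, at 3.70 and 1.54 TPM. All 16 genes of the NRF2 list were at or above 1 TPM and none passed 2-fold (median log2 ratio 0.00), led by the ferritin chains Fth1 at 3155 ± 61.9 and Ftl1 at 2137 ± 408 TPM. The regulator itself, Nfe2l2, was at 28.2 and 24.6 TPM, its inhibitor Keap1 at 45.4 and 44.8 TPM, and the classical target Nqo1 low at 3.73 and 3.16 TPM. Hmox1, the inducible heme oxygenase, was at 40.8 and 25.2 TPM. Of the 14 matched genes for copper loading, selenoprotein synthesis and other selenoproteins, all were at or above 1 TPM. The muscle selenoprotein Selenow reached 837 ± 40.8 TPM (SD, n = 2), 1.30-fold the mean of Gpx4, the highest selenoprotein among the members.

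Enzymes that make superoxide or peroxide were mostly low. Of 15 matched genes, 12 averaged 1 TPM or more, and their median was 2.86 TPM over all 15. Cyba, the shared membrane subunit of NADPH oxidases, was at 115 ± 12.3 TPM, but the catalytic subunits Cybb and Nox4 were at 1.27 and 1.21 and at 1.48 and 1.67 TPM. Xdh, which makes superoxide and peroxide and is known from endothelium and fat, passed 2-fold at 2.73 and 0.65 TPM.

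**Figure D5:**
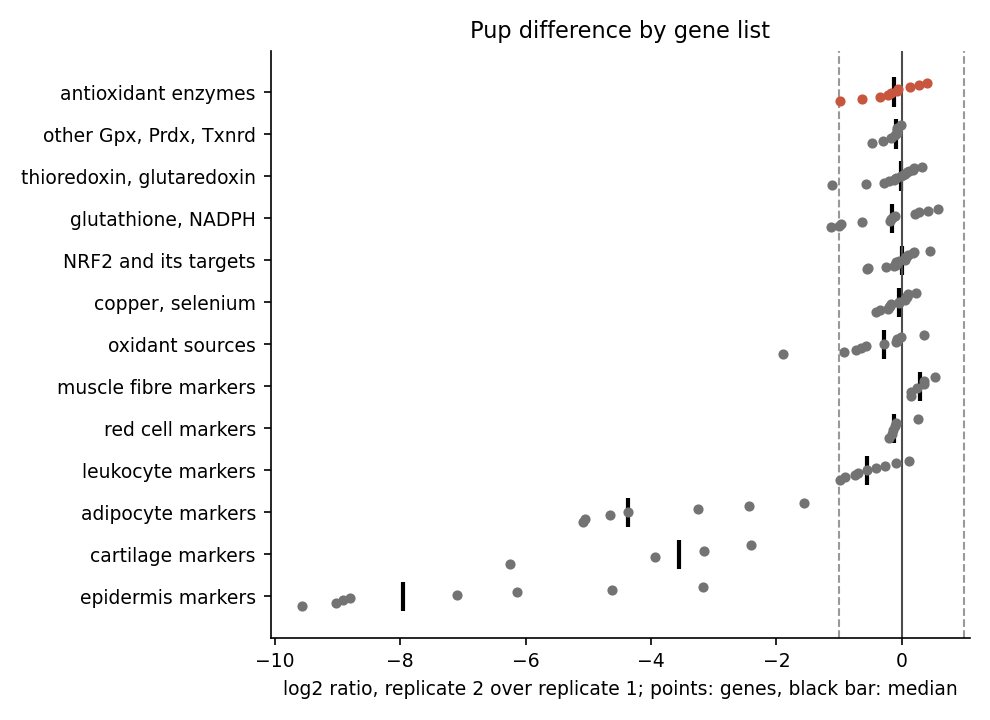
Log2 ratio of replicate 2 over replicate 1 for each gene with at least 100 mean counts, by gene list, with the median of each list as a black bar and dashed lines at 2-fold (fibroblast, endothelium and liver markers are not drawn). The antioxidant enzymes (red) lie between -0.99 and 0.40, while adipocyte, cartilage and epidermis markers lie below -1.

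The promoter windows of the members were searched for the antioxidant response element, the site bound by NRF2, written TGACNNNGC and read on both strands. RefSeq windows (GRCm38.p6, 250 bases before each start site to 50 after) matched 9 of the 10 members, all but Sod3. The letters were found in windows of 3 of these 9 genes, Prdx1, Txnrd1 and Sod1, against 14.0% of all genes with a window. Counted by window, they were in 3 of the members' 14 (21.4%), against 12.4% of all windows. They are shown with their flanks, on the plus strand of the gene with the match in capitals, and each match reads in the reverse direction.
Prdx1: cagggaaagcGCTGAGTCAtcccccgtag
Txnrd1: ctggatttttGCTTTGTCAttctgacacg
Sod1: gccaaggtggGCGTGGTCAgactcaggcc
The matches lie at chr4:116685466-116685474, chr10:82859114-82859122 and chr16:90220706-90220714. A match is a description of the letters, and 3 genes are too few to compare with the share over all genes. The Prdx1 match also holds the letters of an AP-1 site (TGANTCA), and the other two do not. Levels of the 3 genes with the letters ran from Txnrd1 at the lowest to Sod1 at the highest of the members.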

How the data were processed

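Total RNA-seq of 2 newborn muscle samples was used as deposited. The tables come from alignments to the transcriptome with mm10 and GENCODE M4, per the submitters' processing notes filed with them. The aligner's and quantifier's names were not given in the sources used here. The authors deposited expected counts (estimated reads) with posterior mean counts, TPM, and each transcript's percent of its gene. The deposited score columns (lengths, posterior SD, interval bounds) served as description only.

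Names, positions and models came from GENCODE M21 by ID without version (42462 of 43346 rows matched), a later release than the authors' own, so gene spans can be wider than the models counted. Counts were whole in both pups for 8 members (tolerance 0.005). They were rounded, scaled by TMM in edgeR 4.0.16 (R 4.3.3) over genes with at least 10 mean counts, and given as log2 CPM with a prior count of 2. DESeq2 1.42.0 gave alternative size factors. Intervals are exact Clopper-Pearson at 95%, and since amplified reads without UMIs are no independent molecules they cover counting error only. The code was tested on simulated counts. No test was run, as each pup gave 1 library. Other tools were Python 3.11.15, scipy 1.17.1, pandas 2.3.3 and matplotlib 3.10.9.

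Members and lists were chosen with earlier results of these data known. By rule, the text names all members, the 4 genes highest in mean TPM in any list, the paired genes, those past 2-fold at 100 or more mean counts, and transcripts that lead or hold 10% in both samples. Chosen in addition, after their values were seen, were Ccs, Gsr, Pgd, Idh1, G6pdx, Nfe2l2, Keap1, Nqo1, Hmox1, Cybb, Nox4, Txn1, Gpx2, Gpx5 to Gpx8, Prdx6b, Adgre1, S100a9 and Gpx4-201. The same holds for Csf1r, Ptprc, S100a8, Slc7a11 and Ggt1.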

Additional observations from a re-analysis of the deposited data

How the results depend on the processing

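Of the 204 single values recomputed under other settings, 149 stayed within the spread or on the same side, 46 moved, 7 reversed, and 2 others crossed the 3 SD limit. Counts of members at or above 100 TPM (5 to 7), with a ratio below 0 (7 to 8), with a transcript at 99% (6 to 7) and of pairs past 3 SD (9 to 11) stayed within 1.5 times. Members past 2-fold between the pups numbered 0, but 1 (Cat) in deposited TPM, in counts scaled by their total and with ERCC scaling, and 2 (Cat and Sod3) at a 1.5-fold limit. All tested genes past 2-fold numbered 297, but 2694 with no count filter, 68 from 1000 mean counts and 757 at 1.5-fold. Sod1 reversed to -0.012 in deposited TPM and -0.13 with ERCC scaling, which rests on only 406 and 416 spike-in counts. In counts not corrected for length, Prdx3 to Prdx5 reversed to 0.23, Cat to Gpx1 to 0.14 and Sod2 to Prdx3 to 0.67; there the last 2 and Gpx3 to Gpx1 (-1.39) fell under 3 SD, and Txnrd1 to Txnrd2 (1.15) passed it. Txnrd1 to Txnrd2 reversed to -0.082 with posterior means, and ran from -0.013 without replicate 1 to 0.14 without replicate 2; the cause was not tested. No ratio between the pups could be recomputed without a pup. No paired analysis was possible because the series has 1 group.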
